A study of Gasterosteus aculeatus with 17 samples.

Results

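Marine three-spined sticklebacks moved to fresh water for 4 days were set against marine sticklebacks kept in marine water, and the gill response was examined for its size, its direction and its evenness among the moved fish. The fish were chosen by their labels alone, which gives 9 of the 17 fish of the series: 5 moved (fish 1 to 5) and 4 kept (fish 2 to 5). All were wild males in breeding dress from 1 stretch of sea coast, all were held captive, and each library came from polyadenylated RNA of the gills of 1 fish, with no pooling. Freshwater sticklebacks from a lake, 4 moved to marine water for 4 days and 4 kept in fresh water, entered the statistical model and are cited only where they give context. Moving and fresh water came together, so their effects cannot be told apart.

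In sea water a stickleback loses water and gains salt, and specialised gill cells called ionocytes secrete the excess. In fresh water the gradients are turned round, and gill ionocytes take salt up while the spaces between epithelial cells are sealed more tightly. Marine sticklebacks tolerate both waters, and moving between them calls for a remodelling of the gill that takes days. The deposited table lists genes by Ensembl ID only, and none of its 22456 IDs could be paired with a gene name, so genes are described in groups and 4 are given by ID. For the same reason the gill identity of the samples could not be checked against marker genes.

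Depth moved with the water. Libraries of moved fish held 9740777, 6932688, 16108405, 11383221 and 9090093 counts (fish 1 to 5), against 17993109, 18161521, 18489001 and 19450343 in kept fish (fish 2 to 5). Every moved fish was below every kept fish, with means, in units of 1000000 counts, of 10.7 ± 3.44 in moved fish (SD, n = 5) and 18.5 ± 0.651 in kept fish (SD, n = 4), and a two-sided exact permutation test over the 126 assignments of fish gave p = 0.0159, the smallest p it can give. Moved fish 2 also put 19.4% of its counts in its 10 most abundant genes, against 13% to 14.3% in the other moved fish and 12.5% to 14.5% in kept fish. Values below are CPM, counts scaled for library size, and several results are also given at equal depth, after every library was thinned to 6932688 counts.

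Of 18238 genes tested, 262 rose and 262 fell in moved fish, which is 1.44% of tested genes in each direction and 2.87% in all (edgeR's quasi-likelihood test on all 17 fish, Benjamini-Hochberg adjusted p below 0.05). In this fit rises and falls were equal in number but not in size. The median rise was 1.86 log2 units with quartiles of 1.15 and 2.77, and 112 of the rises, 0.614% of tested genes, were over 4-fold. The median fall was 0.676 log2 units with quartiles of 0.562 and 0.867, and 3 of the falls, 0.0164% of tested genes, were over 4-fold. Under 2-fold were 228 of the falls and 51 of the rises. A single very high moved fish can enlarge such a rise. The size needed for a call depends on how many reads a gene gave and on its spread. The median level in kept fish was 9.66 CPM for the rises and 54 CPM for the falls, so the contrast in size is set in part by the call. With limma voom on all 17 fish the same genes had medians of 1.51 and -0.69 log2 units. It called 94 rises, 15 of them over 4-fold, and 150 falls, 1 of them over 4-fold. Over all tested genes the median absolute change was 0.279 log2 units and the median change was 0.02. In bulk tissue, a lower share of cells of a type and less RNA per cell cannot be told apart, so a fall or rise may be of either kind.

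This count depended on which fish were in the model and on the test used. With only the 9 marine fish in the model, edgeR called 0 genes, with a smallest adjusted p of 0.13, although 3112 of 17460 tested genes (17.8%) had an unadjusted p below 0.05. With all 17 fish 4089 genes (22.4%) had such a p, 1979 of them higher (10.9%) and 2110 lower (11.6%) in moved fish. On the same 9 fish limma voom called 0 and DESeq2 called 891. In the fit of 17 fish the 4 groups share 1 estimate of spread per gene, and the biological coefficient of variation was 39% in moved and 30% in kept marine fish, but 23% in moved and 28% in kept freshwater fish. With all 17 fish DESeq2 called 1733 genes (9.89% of those with an adjusted p) and limma voom 244 (1.34%). The edgeR count was 0 without kept fish 2, 3 or 4 (where 3234, 3120 and 3680 genes were below 0.05 before adjustment) and 1222 without kept fish 5. It was 840 without moved fish 1 and 116 without moved fish 2, and 345 without moved fish 4. Without moved freshwater fish 1 or 2 it was 348 and 333, and without kept freshwater fish 1 it was 331. Leaving out a marine fish changes the group means that are compared as well as the spread. The cause of these differences in count was not tested.

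**Figure D1:**
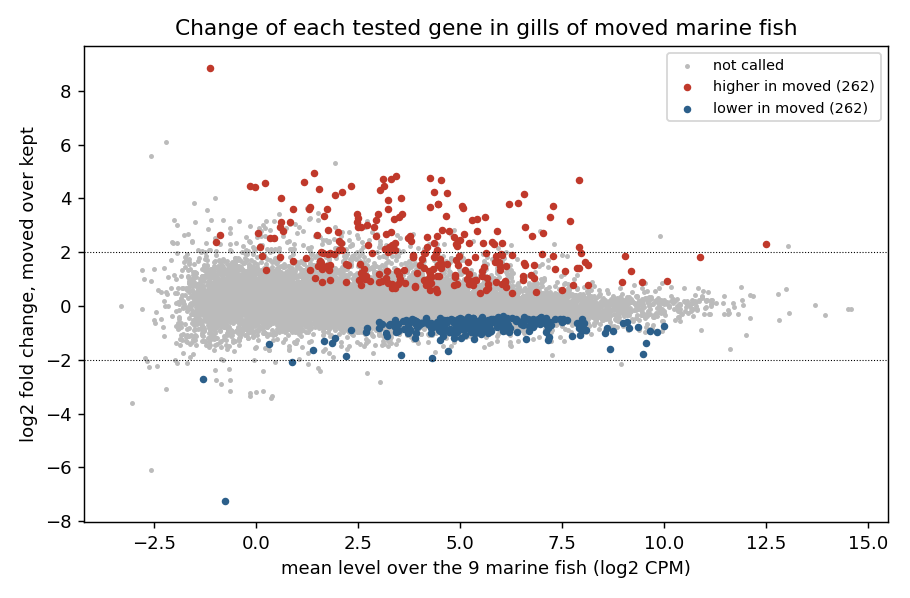
Each point is 1 of the 18238 tested genes, with its mean log2 CPM over the 9 marine fish on the horizontal axis and its log2 fold change, moved over kept, on the vertical axis. Red points are the 262 genes higher and blue points the 262 genes lower in moved fish at an adjusted p below 0.05, and dotted lines mark 4-fold. The red points reach far above the upper line (112 genes), while the blue points lie in a thin band near 0 with 3 beyond the lower line.

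By a mean level that includes the moved fish, both rises and falls were called more often among genes with many reads. Genes were banded by their mean CPM over the 9 marine fish, which is not corrected for gene length, so the bands rank how many reads a gene gave and not how many transcripts it had. Of 1523 tested genes under 1 CPM, 2 rose and 1 fell, and of 6792 genes between 1 and 10 CPM, 65 rose and 17 fell. Between 10 and 100 CPM, 152 of 8341 genes rose (1.82%) and 187 fell (2.24%). Over 100 CPM, 43 of 1582 genes rose (2.72%) and 57 fell (3.6%). Genes with few reads vary more by counting alone and are harder to call, so the bands do not rank the response itself. Of the 112 rises over 4-fold, 29 (25.9%) lay below 10 CPM, where 45.6% of all tested genes did. The moved fish are part of this mean, so a rise lifts the band of its own gene and a fall lowers it. By the mean of the kept fish alone, the median level was 4.66 CPM for the rises over 4-fold. It was 9.66 CPM for all rises, 54 CPM for the falls and 11.4 CPM for all tested genes. Choosing genes by direction also favours low kept levels for rises and high ones for falls.

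Each set of called genes was 1.44% of tested genes by number, and its share of each library was as follows. Genes that rose held 3.6%, 10.1%, 2.98%, 2.77% and 3.89% of the scaled counts in moved fish 1 to 5, against 1.02%, 1.09%, 1.23% and 1.46% in kept fish 2 to 5. Genes that fell held 1.86%, 1.58%, 1.87%, 1.58% and 2.07% in moved fish, against 3.54%, 3.22%, 3.4% and 2.48% in kept fish. The groups do not overlap in either sum, as the choice of the genes makes likely, and moved fish 2 stands above the rest in the first of them.

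Over the genes that fell, the moved fish lay close together. Most falls were small, and a small change is called only where fish differ little, so this closeness follows in part from the call and is given as a description. Against the mean of the kept fish, which all 5 differences share, the median over the 262 genes that fell was -0.68, -0.80, -0.60, -0.84 and -0.51 log2 units in moved fish 1 to 5. The lowest value of the group belonged to fish 4 for 102 of these genes and to fish 2 for 85, which was not counted over all tested genes. All 5 moved fish lay below all 4 kept fish for 216 of the 262 falls (82.4%), where 3.72% of all tested genes did. Between 90.1% and 99.2% of the falls lay below the kept range in each single moved fish. The highest moved fish exceeded the lowest by a median of 1.52-fold over the falls. The SD of log2 CPM was a median of 0.241 among moved fish and 0.213 among kept fish for these genes.

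Over the genes that rose, the moved fish lay farther apart. A large change can be called with a large spread, so the contrast with the falls is also set in part by the call. Against the mean of the kept fish, the median over the 262 genes that rose was 1.44, 2.36, 1.01, 1.04 and 1.20 log2 units in moved fish 1 to 5. Set against the other kept fish in the same way, kept fish 2 to 5 were at -0.28, -0.18, 0.05 and 0.35. All 5 moved fish lay above all 4 kept fish for 112 of the 262 rises (42.7%), where 1.82% of all tested genes did. The highest moved fish exceeded the lowest by a median of 4.99-fold over the rises, and the SD of log2 CPM was a median of 0.895 among moved fish and 0.411 among kept fish. For 215 of the rises (82.1%) the SD was larger among moved fish, which was so for 65% of all tested genes. These SD and those of the falls were taken at full depth only, where counting error is larger in the shallower libraries of moved fish.

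**Figure D2:**
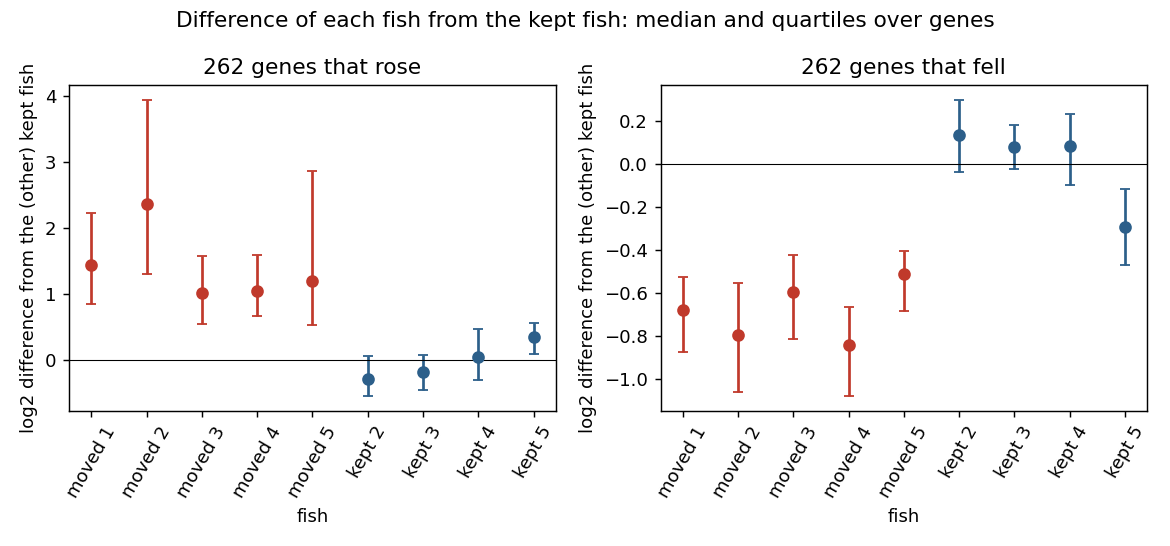
Points are the median and bars the quartiles, over the 262 genes that rose (left) and the 262 that fell (right), of each fish's log2 difference from the mean of the kept fish. Moved fish (red) are set against all 4 kept fish and kept fish (blue) against the other 3. Moved fish lie between 1.01 and 2.36 on the left, with wide bars in fish 2 and 5, and between -0.84 and -0.51 on the right, and kept fish 5 lies nearest to the moved fish in both panels.

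The rises over 4-fold varied most among the moved fish. A single very high fish can carry a gene into this set, so their spread and the lead of 1 fish are partly fixed by the limit of 4-fold. Over these 112 genes the median difference from the kept mean was 1.85, 4.26, 0.71, 1.21 and 3.03 log2 units in moved fish 1 to 5. Fish 2 was the highest of the moved fish for 75 of them and fish 1 for 29, which leaves 8 for the other 3 fish together. Which moved fish was highest was not counted over all tested genes. Fish 5 came second for 64 of the 75 led by fish 2, and fish 2 came second for 8 of the 29 led by fish 1. The highest moved fish was a median of 6-fold above the median moved fish and 20.1-fold above the lowest. All 5 moved fish lay above the kept range for 30 of these genes (26.8%), 4 of 5 for 54 (48.2%) and 3 of 5 for 28 (25%). Over all tested genes these shares were 1.82%, 6.08% and 11.6%. Without moved fish 2 edgeR called 73 rises, 25 of them over 4-fold, and without moved fish 1, 3 or 4 the rises over 4-fold numbered 236, 244 and 159.

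The order of the moved fish in these large rises, fish 2, 5, 1, 4 and 3 from highest to lowest, is also their order from the shallowest library to the deepest. At equal depth the medians over the same genes were 1.64, 4.06, 0.59, 1.10 and 2.99 log2 units in fish 1 to 5, in the same order and nearly as large. Genes called anew at equal depth (122 rises over 4-fold) gave 1.47, 4.06, 0.56, 1.20 and 2.90. Thinning leaves the expected CPM of each gene unchanged, so this order was likely to stay. Whether anything that came with depth bears on the order was not tested.

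Over the 150 rises up to 4-fold the moved fish differed less, as smaller changes must to be called, and their order was another one. Their median differences from the kept mean were 1.29, 1.43, 1.15, 1.00 and 0.63 log2 units in moved fish 1 to 5. Fish 5, second highest in the large rises, was the lowest here, and over all 262 rises it was the lowest moved fish for 106 genes. All 5 moved fish lay above the kept range for 82 of the 150 (54.7%) and 4 of 5 for 62 (41.3%), against 1.82% and 6.08% of all tested genes. Of all 262 rises, 48 were above the kept range in fish 1 to 4 but not in fish 5, 32 in all but fish 3, 27 in all but fish 1, and 27 in fish 1, 2 and 5 alone. The shares of these patterns, and of fish 5 as the lowest, were not counted over all tested genes.

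**Figure D3:**
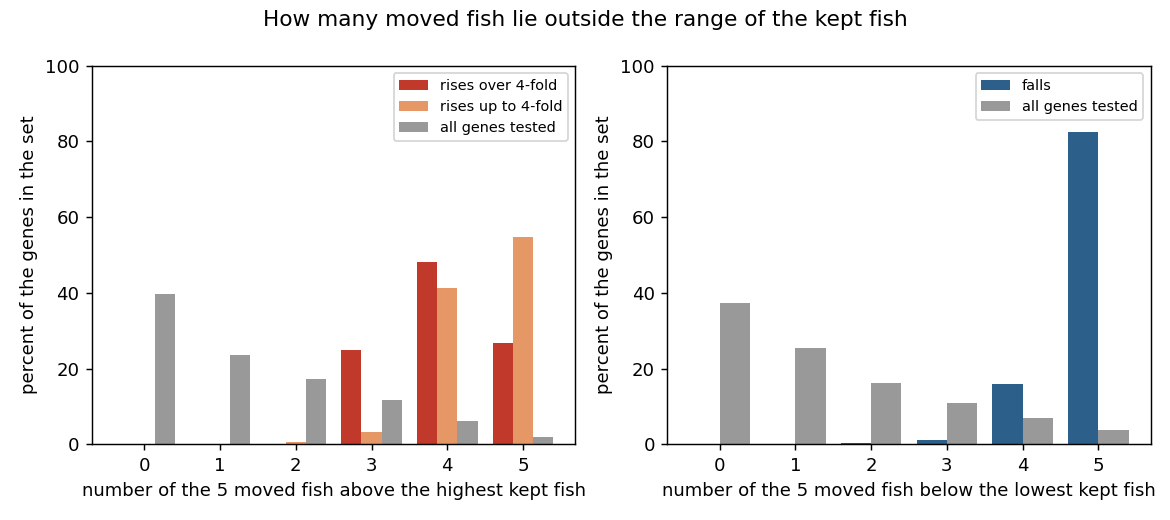
Bars give the percent of genes in each set for which 0 to 5 of the 5 moved fish lay above the highest kept fish (left) or below the lowest kept fish (right). For 82.4% of the falls all 5 moved fish were below the kept range, against 54.7% of the rises up to 4-fold and 26.8% of the rises over 4-fold above it, while grey bars show 3.72% and 1.82% for all tested genes.

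A set of 4 genes shows these patterns fish by fish, chosen among called genes that reached a mean of 5 CPM in 1 group and whose moved and kept values did not overlap (95 rises and 212 falls). In each direction they are the gene with the largest change and the gene past 2-fold with the smallest SD among moved fish, so neither size nor evenness is a finding for them. With only the 9 marine fish, edgeR gave adjusted p of 0.15, 0.13, 0.15 and 0.13 in the order below, so none passed. On the same fish limma voom gave adjusted p of 0.23, 0.065, 0.2 and 0.065, and DESeq2 0.0091 or lower. The alternatives counted below share most of their fish and are not independent.

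ENSGACG00000000068 had the largest such rise and is an uneven one. It was at 30.9, 581, 9.2, 11.2 and 169 CPM in moved fish 1 to 5, against 5.14, 5.22, 5.41 and 7.5 CPM in kept fish 2 to 5. Moved fish 2 and 5 were far above the others, and moved fish 3 and 4 were just above the highest kept fish. The log2 change was 4.77 (SE 1.00, edgeR adjusted p = 0.028), with means of 160 ± 244 CPM in moved fish and 5.82 ± 1.13 CPM in kept fish (SD, n = 5 and 4). Without moved fish 2 it was 3.23 (edgeR adjusted p = 0.046), and over 32 alternatives it ranged from 2.63 to 5.13 (adjusted p = 1.5e-05 to 0.23), past the threshold in 25 of them. Freshwater fish were at 8.42 to 14.8 CPM when moved and 7.1 to 9.42 CPM when kept. These values run from about that of kept marine fish 5 to above that of moved marine fish 4.

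ENSGACG00000008980 was the most even rise. It was at 8.72, 8.48, 9.84, 8.56 and 6.72 CPM in moved fish, against 3.55, 3.38, 3.22 and 5.93 CPM in kept fish. Moved fish 5 was the lowest of its group and kept fish 5 the highest of its own, and these values lie next to each other without overlap. The log2 change was 1.07 (SE 0.23, edgeR adjusted p = 0.028), with means of 8.46 ± 1.12 CPM in moved fish and 4.02 ± 1.28 CPM in kept fish (SD, n = 5 and 4). Over 32 alternatives it ranged from 0.98 to 1.33 (adjusted p = 0.00044 to 0.13), past the threshold in 24 of them. Freshwater fish were at 7.99 to 8.95 CPM in marine water, to which they had been moved, and at 8.3 to 16.6 CPM in their own fresh water.

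ENSGACG00000018249 had the largest such fall, and here the kept fish were the uneven group. It was at 3.31, 3.03, 2.19, 2.34 and 3.19 CPM in moved fish, against 22.8, 4.41, 8.63 and 4.97 CPM in kept fish. Kept fish 2 was far above the rest of its group, while kept fish 3 and 5 were close to the moved fish. The log2 change was -1.87 (SE 0.45, edgeR adjusted p = 0.039), and it was -1.10 without kept fish 2 (edgeR adjusted p = 0.15). Over 31 alternatives it ranged from -2.12 to -1.10 (adjusted p = 0.002 to 0.2), past the threshold in 17 of them. In freshwater fish the gene was at 1.35 to 4.15 CPM when moved and 1.44 to 2.61 CPM when kept, below every kept marine fish.

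ENSGACG00000019281 was the most even fall. It was at 6.29, 5.61, 6.11, 7.21 and 7.27 CPM in moved fish, against 14.8, 15.4, 13.3 and 13.2 CPM in kept fish. The groups are wide apart compared with the spread within either, at 6.5 ± 0.722 CPM in moved fish and 14.2 ± 1.08 CPM in kept fish (SD, n = 5 and 4). The log2 change was -1.12 (SE 0.19, edgeR adjusted p = 0.015), with a range of -1.16 to -1.05 over 32 alternatives and an adjusted p of 6.3e-07 to 0.13, past the threshold in 26 of them. In freshwater fish the gene was at 7.32 to 11.5 CPM when moved and 5.44 to 9.48 CPM when kept.

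**Figure D4:**
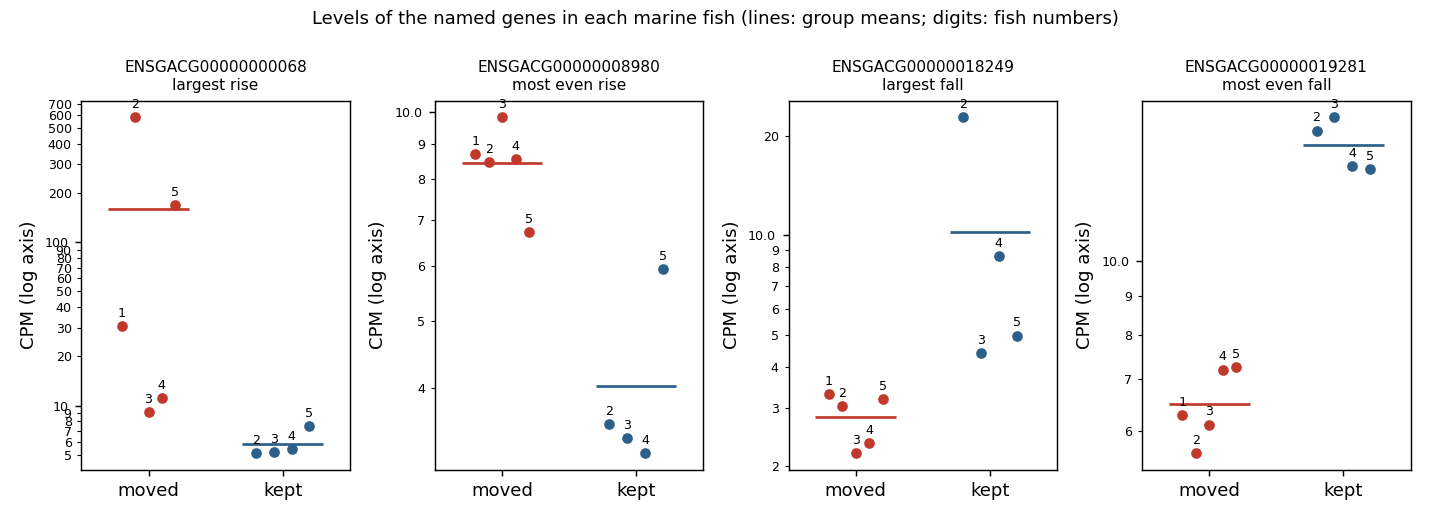
CPM of the 4 genes in each marine fish on log axes, with moved fish in red on the left, kept fish in blue on the right, group means as lines and fish numbers as digits. Moved fish run from 9.2 to 581 CPM for ENSGACG00000000068 but from 6.72 to 9.84 CPM for ENSGACG00000008980, and for ENSGACG00000018249 the spread lies in the kept fish instead, from 4.41 to 22.8 CPM.

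Over all tested genes, moved fish lay farther from their group mean than kept fish. Each fish was given 1 value, its root mean square distance in log2 CPM from the mean of its group over all tested genes, corrected for group size. This was 0.799, 0.823, 0.611, 0.619 and 0.614 in moved fish 1 to 5, against 0.495, 0.509, 0.609 and 0.512 in kept fish 2 to 5. The means were 0.693 ± 0.11 in moved fish and 0.531 ± 0.05 in kept fish (SD, n = 5 and 4), a difference of 0.162 with a two-sided exact permutation p = 0.0159, the smallest possible here. The permutation kept each distance as measured from the observed group mean. Fish of a group share that mean, so their distances are not independent and the p-values of this comparison are approximate. At equal depth the difference was 0.116 (exact permutation p = 0.0635), which does not pass 0.05. Without single moved fish the difference was 0.12 to 0.19 and the exact permutation p was 0.0571 to 0.0857, where 0.0286 is the smallest that 4 against 4 fish allow. Pairs of moved fish lay 0.768 (fish 3 and 4) to 1.26 (fish 1 and 2) apart, and pairs of kept fish 0.673 to 0.82.

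Genes far above the kept range were concentrated in moved fish 2. It had 521 genes more than 4-fold above every kept fish, against 79, 30, 41 and 133 in moved fish 1, 3, 4 and 5 and 9 to 78 in single kept fish set against the other 3. At equal depth these numbers were 490 in moved fish 2, 69, 26, 37 and 116 in moved fish 1, 3, 4 and 5, and 6 to 49 in kept fish. Genes more than 4-fold below every kept fish numbered 191 and 153 in moved fish 1 and 2 and 43 to 75 in moved fish 3, 4 and 5, against 29 to 68 in kept fish. At equal depth they numbered 86 and 61 in moved fish 1 and 2 and 10 to 24 in the others, against 19 to 28 in kept fish.

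Among kept fish, number 5 lay nearest to the moved fish over the falls and over all rises, but not over the rises over 4-fold. It was the lowest kept fish for 176 of the 262 falls (67.2%) and the highest for 120 of the 262 rises (45.8%). How often kept fish 5 was lowest or highest over all tested genes was not counted. Its median over the falls was -0.29 log2 units against the other kept fish, where kept fish 2, 3 and 4 were at 0.14, 0.08 and 0.08. Over the 112 rises over 4-fold, kept fish 4 was the highest kept fish for 53 and kept fish 5 for 26, with medians of 0.40 and 0.23 log2 units against the other kept fish. Without kept fish 5 edgeR called 531 rises and 691 falls.

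The freshwater fish were at different levels for the large and the moderate rises, a contrast that was not tested. They share no library with the marine groups, but they entered the fit that called these genes. That fit favours genes that vary little within the freshwater groups too. Over the 112 rises over 4-fold the median level was 3.67, 6.71, 2.96, 3.43 and 5.27 log2 CPM in moved marine fish 1 to 5, against 1.98 to 2.44 in kept marine fish. It was 2.26 to 2.37 in moved freshwater fish and 2.08 to 2.58 in kept freshwater fish, within or near the range of kept marine fish in both waters. Moved marine fish had the highest mean of the 4 groups for 98 of the 112 (87.5%), as for 22.5% of all tested genes, although genes chosen as higher in moved than in kept marine fish favour that outcome.

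Over the 150 rises up to 4-fold the median level was 4.54 to 5.41 log2 CPM in moved marine fish, against 3.69 to 4.16 in kept marine fish. In freshwater fish it was 4.48 to 4.61 when moved to marine water, against 4.91 to 5.20 when kept in fresh water, and these groups do not overlap. Of these 150 genes, 112 (74.7%) were higher in fresh water than in marine water among freshwater fish, as were 47 of the 112 larger rises (42%) and 48.3% of all tested genes. Fresh minus marine water, which in freshwater fish is kept minus moved, had a median of 0.41 log2 units for the smaller and -0.20 for the larger rises. Over the 262 falls the median level was 4.87 to 5.26 log2 CPM in moved marine fish, against 5.53 to 5.86 in kept marine fish, and 5.26 to 5.58 in moved and 5.18 to 5.45 in kept freshwater fish. A test of whether the response to water differed between the populations, the interaction in edgeR, called 2 genes of 18238. Of these, 1 was among the rises and 0 among the falls. With this design the same contrast also sets moved against kept fish over both populations, so these readings cannot be told apart. Few calls here do not show that the populations responded alike.

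**Figure D5:**
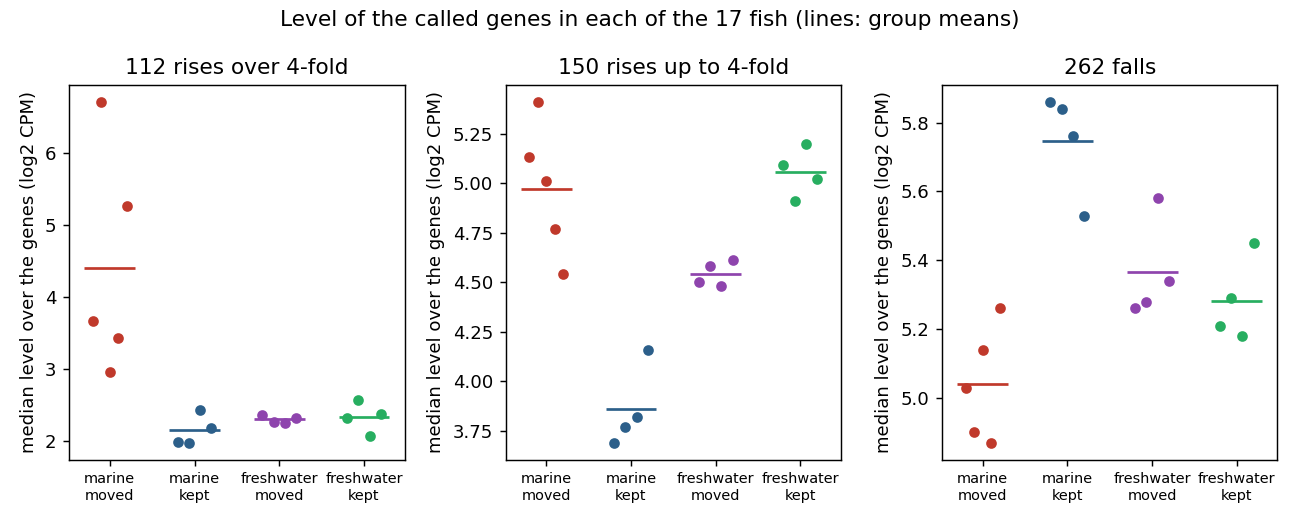
Points are single fish of the 4 groups and give the median log2 CPM over the 112 rises over 4-fold (left), the 150 rises up to 4-fold (middle) and the 262 falls (right), with group means as lines. On the left only moved marine fish stand apart, from 2.96 to 6.71, whereas in the middle kept freshwater fish (4.91 to 5.20) lie at the height of moved marine fish (4.54 to 5.41).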

How the data were processed

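Gill RNA of 17 fish was sequenced after bead purification of polyadenylated RNA, per the labels' protocols. CASAVA 1.8.2 and TopHat2 2.1.0 are named in the submitters' processing notes. Which genome build, annotation and counting tool were used is not given in the sources used here. The deposited values are raw whole-number counts for 22456 genes and 17 fish, and every column belongs to a sample. The labels' protocol speaks of 4 fish per group, while the table holds 5 moved marine fish. Of 17449 genes with over 200 counts in all, 4873 (27.9%) had counts that were all multiples of the same whole number above 1, for a reason not given. Among tested genes such counts made up 35.9% of the rises and 27.9% of the falls, against 27.5% of all tested genes. Counts were also tested after division by the divisor.

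Genes were kept with filterByExpr (minimum count 10), libraries scaled by TMM, and the 4 groups fitted in edgeR 4.0.16 (glmQLFit with its version 4 procedure, glmQLFTest, no covariates), with moved minus kept marine fish as the contrast and Benjamini-Hochberg adjustment over all 18238 genes at 0.05. The SE is the log2 fold change over the square root of F. Log2 CPM used a prior count of 2. Alternatives used DESeq2 1.42.0 and limma 3.58.1 in R 4.3.3, and figures matplotlib 3.10.9. Exact permutation tests were two-sided over fish. Within the moved and within the kept marine fish no library was a duplicate, since pairs gave a chi-square of 35.9 to 151 per degree of freedom. Pairs across these groups were not compared. Counting error adds to the spread between fish, most of all in genes with few reads and in the shallower libraries of moved fish.

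None of the 22456 IDs matched the reference gene table (52177 genes, 0 matches by Ensembl ID, symbol, synonym or locus tag). The lists of transport, junction, hormone, stress, proliferation and immune genes and of cell type markers that had been drawn up therefore had 0 members and gave no result. Named genes were limited to 4 by a rule: called, at least 5 CPM in the higher group, no overlap, then per direction the largest change and the smallest SD among moved fish past 2-fold. The members, the lists and the tests were chosen with earlier results of these data known.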

Additional observations from a re-analysis of the deposited data

Results flagged for a closer look

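Of 38 sets of 4 or 5 fish in which the most extreme fish was set against the others, 10 held a fish far from the rest. For independent sets chance gives about 1 in 20, but these sets overlap and some were chosen for large changes, so that rate does not apply to them. In moved marine fish 2 the 10 most abundant genes held 19.4% of counts and the single most abundant 6.35%, the genes that rose held 10.1%, 521 genes were more than 4-fold above the kept range, and ENSGACG00000000068 was at 581 CPM. In kept marine fish 2 the 10 most abundant genes held 14.5% of counts. Kept marine fish 4 stood apart in its distance from the group mean, at 0.609 log2 units. Kept marine fish 5 stood apart in its median over the genes that fell, at -0.29 log2 units, and in ENSGACG00000000068 at 7.5 CPM and ENSGACG00000008980 at 5.93 CPM. Between the populations, the response to water differed for 2 genes by the interaction test in edgeR. That contrast cannot be told apart from moved against kept fish over both populations.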

How the results depend on the processing

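Counts of called genes are given as all, rises, falls, rises over 4-fold and falls over 4-fold, beside 524, 262, 262, 112 and 3. DESeq2 gave 1733, 958, 775, 253 and 6, and limma voom 244, 94, 150, 15 and 1 (38.5% rises, against 50%). With only the 9 marine fish edgeR and limma voom gave 0 throughout (3112 and 3674 genes were below 0.05 before adjustment), and DESeq2 gave 891, 456 and 435. Without moved fish 1 and 2 together they were 105, 83, 22, 19 and 0. Leaving out single fish of any group gave 0 to 1222, 0 to 551, 0 to 691, 0 to 244 and 0 to 26. The share of rises was 58.8% with upper-quartile scaling, and 43.5% to 79.7% without single marine fish where any gene was called. Falls over 4-fold were 5 with no low-count filter, 0 with a stricter one and 1 to 5 over 10 draws at equal depth, an alternative added after seeing the data, in which 458 to 568 genes were called and 52.4% to 57.8% rose. The fish number as a replicate block gave 0 in every count (3719 at an unadjusted p below 0.05, smallest adjusted p 0.054). Fish of the same number are separate wild animals, and their deviations correlated at -0.19, 0.19, 0.19 and 0.23 (numbers 2 to 5), not above 0.1 for every number as pairing was taken to require. Moved fish 3, 4 and 5 deviated most like the kept fish of their own number and moved fish 2 like kept fish 4, which is a hint from the data and not from the design. The difference in spread between moved and kept fish was 0.122 with the stricter filter and 0.116 at equal depth (exact permutation p = 0.0635 for both), and 0.12 to 0.202 without single marine fish. The lower total counts of moved fish kept their direction and passed the threshold without each marine fish in turn. The cause of these changes was not tested. Where fish were left out the model also held fewer fish. Libraries of 6932688 to 16108405 counts in moved fish limit what can be seen of genes with low counts.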
